A study of Mus musculus with 16 samples.

Results

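Skeletal muscle genes were read in ear biopsies of ageing mice. The genes are 43 named members of the contractile apparatus and its supply: filament proteins, Z-disc and M-band proteins, calcium handling proteins, muscle energy enzymes, 2 myogenic transcription factors and 2 muscle ubiquitin ligases. They were taken by name from a list of muscle genes that was drawn up with earlier results of these data known, and all 43 were found by symbol among the 45706 genes of the table. The samples were ear skin of 8 C57Bl/6J mice, an inbred laboratory strain, all male by the study's methods, and no treatment is named. Each was clipped with a 3 mm punch in the first ear at 24 months (labelled ages 23.8 to 24.4 months, category young) and in the second ear at 30 months (29.0 to 30.1 months, category old), which gave 16 RNA-seq libraries in 8 pairs. Age and ear changed together in every mouse, so they cannot be told apart. Mice are named by their numbers (13, 14, 21, 29, 43, 50, 64 and 75), and the p-values measure the spread between these mice.

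A skeletal muscle fibre is packed with sarcomeres, in which thick filaments of myosin pull on thin filaments of actin. Troponin and tropomyosin on the thin filament set when the pull can start, the sarcoplasmic reticulum releases and takes back the calcium that starts it, and creatine kinase and glycogen breakdown supply its energy. Fibres are named by the myosin heavy chain they make: Myh7 in slow type I fibres, Myh2 in fast type IIa, Myh1 in fast type IIx and Myh4 in type IIb, the fastest, while Myh3 and Myh8 are the embryonic and perinatal forms. The mouse ear carries small striated muscles that move the pinna, beside skin, cartilage and fat.

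The libraries held 22967222 to 36162431 reads counted on genes (24 months, median 28877001; 30 months, median 29138399). Levels are given as CPM, counts scaled to a common library total, which was adjusted by a TMM factor for each library (0.957 to 1.035). Over the whole table, 0 of 21526 genes tested passed an adjusted p of 0.05 between 30 and 24 months in the paired quasi-likelihood test of edgeR, which makes a background of 0.0%. At an unadjusted p under 0.05 there were 1047 higher genes (4.86%) and 1546 lower ones (7.18%). DESeq2 called 228 genes (1.06%). Before the muscle values, 2 libraries have to be named. The 24-month library of mouse 43 held the highest level of 32 of the 43 genes, and the 30-month library of mouse 29 stood apart in genes of muscle wasting and of fat, and the fitted values without single mice are given below.

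Acta1 is the actin of the thin filament, and Trim63 a ligase that marks filament proteins for breakdown. Myh4 and Mybpc2 are parts of the fast thick filament with some of the widest spreads. Upstream sequences of these 4 genes are shown as examples. Each is the 250 bases before the RefSeq transcription start (GRCm38.p6), written 5′ to 3′ on the gene's strand. Capitals mark matches on either strand to motifs known from muscle promoters: the myogenic E-box (searched as CAGCTG), the CArG box of serum response factor, the MEF2 site, the MCAT element of TEAD factors (searched as CATTCC), the TATA box, read strictly (searched as TATAAA), and the site of FoxO factors, which drive wasting genes (searched as GTAAACA). The Acta1 window lies at chr8:123894776-123895025 on the minus strand, that of Myh4 at chr11:67237562-67237811 on the plus strand, that of Mybpc2 at chr7:44524670-44524919 on the minus strand and that of Trim63 at chr4:134314870-134315119 on the plus strand.
Acta1: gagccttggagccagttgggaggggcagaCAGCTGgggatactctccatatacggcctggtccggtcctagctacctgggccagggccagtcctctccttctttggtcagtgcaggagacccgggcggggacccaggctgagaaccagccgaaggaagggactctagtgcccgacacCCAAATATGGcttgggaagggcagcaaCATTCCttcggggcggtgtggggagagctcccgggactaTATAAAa
Myh4: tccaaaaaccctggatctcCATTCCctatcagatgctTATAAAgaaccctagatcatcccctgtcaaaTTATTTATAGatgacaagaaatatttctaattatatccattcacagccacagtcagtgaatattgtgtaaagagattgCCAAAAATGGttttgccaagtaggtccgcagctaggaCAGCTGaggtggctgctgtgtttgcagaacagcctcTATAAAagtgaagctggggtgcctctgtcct
Mybpc2: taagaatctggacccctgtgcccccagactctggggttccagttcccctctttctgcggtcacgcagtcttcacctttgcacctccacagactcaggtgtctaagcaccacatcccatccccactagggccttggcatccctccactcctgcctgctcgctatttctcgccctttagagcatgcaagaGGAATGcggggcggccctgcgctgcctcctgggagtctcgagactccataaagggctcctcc
Trim63: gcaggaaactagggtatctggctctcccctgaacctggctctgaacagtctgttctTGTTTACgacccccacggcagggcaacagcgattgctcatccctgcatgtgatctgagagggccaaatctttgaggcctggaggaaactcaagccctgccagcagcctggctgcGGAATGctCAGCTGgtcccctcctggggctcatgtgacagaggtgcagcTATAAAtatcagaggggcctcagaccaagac

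In the Acta1 window the matches were a myogenic E-box, a CArG box, an MCAT element and a TATA box, in this order towards the start. The Myh4 window held an MCAT element, a TATA box match, a MEF2 site that overlaps another such match on the other strand, a CArG box, a myogenic E-box and, closest to the start, a further TATA box. Mybpc2 had a single match, an MCAT element on the other strand. Trim63 had a FoxO site and an MCAT element on the other strand, then a myogenic E-box and a TATA box. Windows were at hand for 33 of the 43 genes (41 windows, since some genes have several starts). The myogenic E-box was in 17 of them (41.5%, against 13% of all 32851 windows), a CArG box in 6 (14.6% against 1.47%), a MEF2 site in 5 (12.2% against 2.92%), the MCAT element in 10 (24.4% against 12.6%), the TATA box in 9 (22.0% against 12.4%) and the FoxO site in 1, that of Trim63 (2.44% against 3.17%). The looser E-box CANNTG, which includes the myogenic one, was in 35 of the 41 windows and in 66.2% of all. These are matches of letters, given as a description of the sequences.

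Muscle RNA was present in every library, in amounts that differed widely between mice at either age. The summed level of the 43 genes ran from 2408 to 22812 CPM at 24 months (median 4629) and from 3559 to 18303 CPM at 30 months (median 8188). As a share of all counts on genes this was 0.246% to 2.18% at the first age and 0.356% to 1.84% at the second. Mouse 43 was highest at 24 months and lowest at 30 months, mouse 13 was highest at 30 months, and the ages overlapped. In such bulk biopsies, fewer muscle fibres and less RNA per fibre cannot be told apart.

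**Figure D1:**
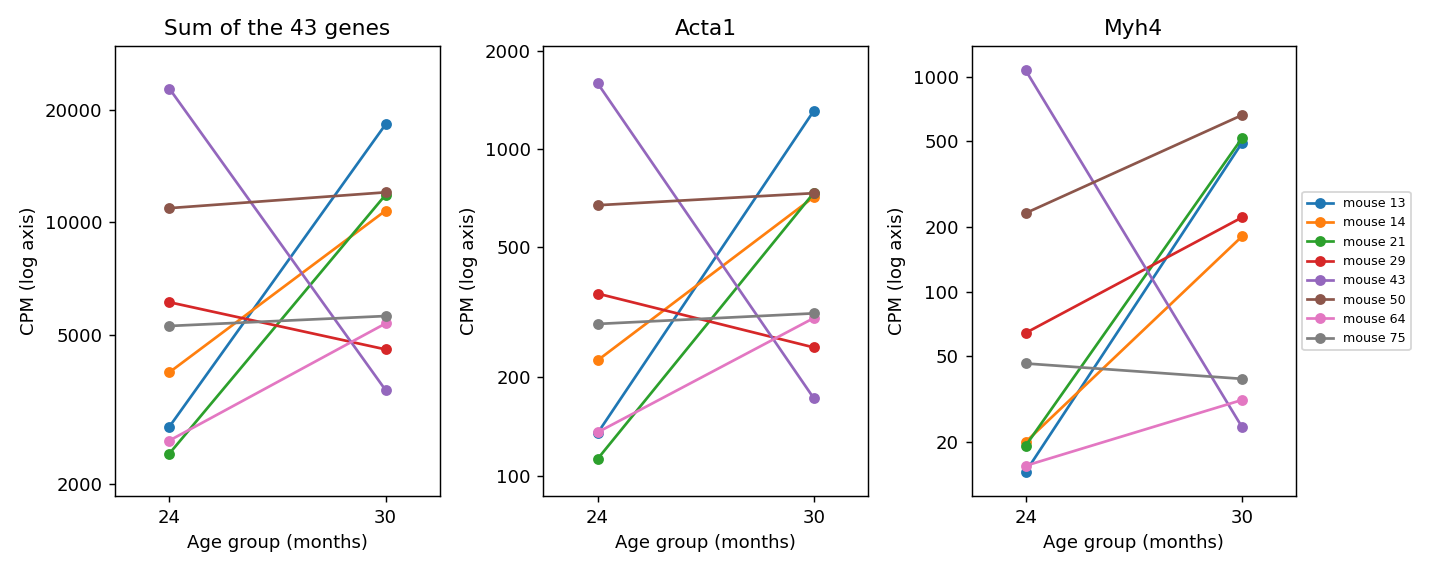
Summed CPM of the 43 muscle genes, Acta1 CPM and Myh4 CPM (log axes) at 24 and 30 months, with a line for each of the 8 mice. Mouse 43 drops from the highest point at 24 months to the lowest at 30 months, while the lines of mice 13, 14, 21, 50 and 64 climb in all 3 panels.

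In 4 of the 8 mice all 43 genes moved one way, 3 of these up and 1 down, and the other mice were mixed to different degrees. In mice 13, 14 and 64 all 43 genes had a higher CPM at 30 months, with median log2 changes of 2.56, 1.46 and 0.98. In mouse 21, 42 genes were higher (median 2.07), all but Myog. In mouse 43 all 43 were lower (median -2.44), down to -7.01 for Mybpc2. In mouse 29, 35 were lower and 8 higher (median -0.55), while mouse 50 had 22 higher and 21 lower (median 0.04) and mouse 75 had 33 higher and 10 lower (median 0.11). Over all genes tested, the median log2 change of a mouse stayed between -0.019 and 0.007. Of the 43 genes, 20 spanned more than 10-fold between their lowest and highest library, against 4.88% of all genes, and 40 spanned more than 4-fold, against 17.4%. The median span was 9.64-fold for the muscle genes and 1.90-fold for the 21279 genes tested that were above 0 in every library.

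**Figure D2:**
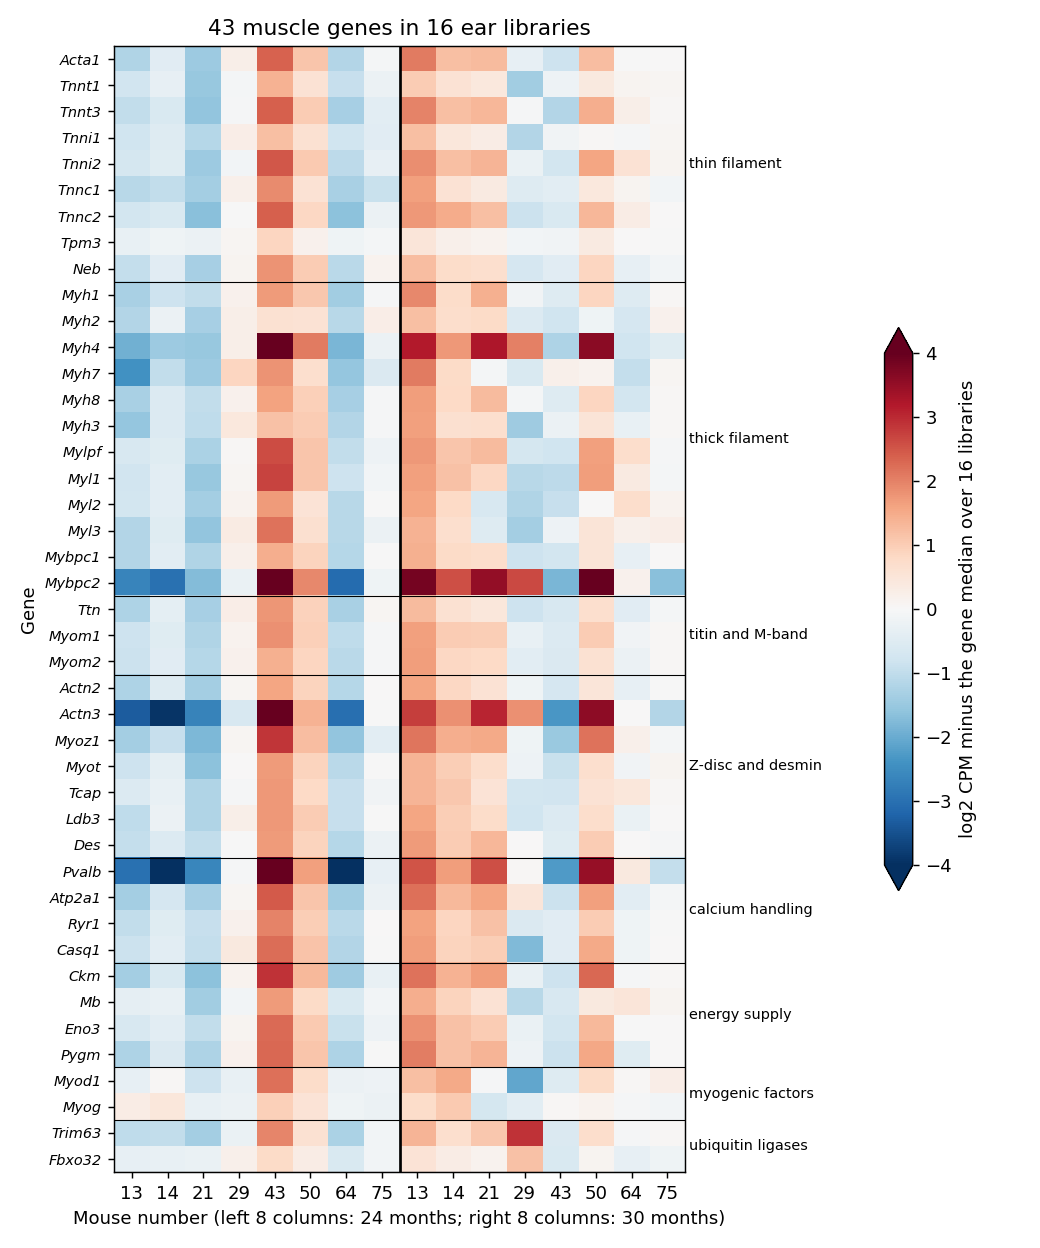
Levels of the 43 genes (rows, by role) in the 16 libraries (columns, by mouse number, 24 months left and 30 months right) as log2 CPM minus the gene's median. Columns are red or blue nearly throughout, with mouse 43 at 24 months and mouse 13 at 30 months the reddest, and Myh4, Mybpc2, Actn3 and Pvalb show the strongest colours.

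Between the ages, 0 of the 43 genes passed the adjusted threshold (background 0.0%), and 0 had an unadjusted p under 0.05 in edgeR (background 4.86% higher, 7.18% lower), the smallest being 0.0674 for Mybpc2, 0.0675 for Trim63 and 0.0687 for Actn3. The fitted log2 fold change was above 0 for 42 of 43, with a median of 0.55, beside a median of 0.007 and 51.7% above 0 over all genes tested. The lowest adjusted p among the 43 was 0.444. All 43 genes overlapped between the ages, as did nearly the whole table, where 42 genes (0.195%) did not. At least 5 of 8 mice were higher at 30 months for 38 of the genes (39.4% of all genes tested), at least 6 of 8 for 21 (19.6% of all), and at least 7 of 8 for 3 (6.49% of all), namely Atp2a1, Des and Trim63. All or all but 1 of the 43 genes moved one way in 5 of the mice, so these counts are not made of independent results. Without mouse 43, 27 of the genes had an unadjusted p under 0.05, all higher (background 8.99% higher, 8.60% lower), 0 passed the adjusted threshold, the lowest adjusted p was 0.139 and the median log2 fold change was 0.92. Without mouse 29 the median was 0.76 (background 3.57% higher, 5.84% lower), without mouse 13 0.28 (background 5.79% higher, 5.67% lower) and without mouse 21 0.29 (background 3.90% higher, 4.66% lower), and in each of these 0 had an unadjusted p under 0.05. Without mouse 75 there were 2, Actn3 and Mybpc2, both higher (background 3.91% higher, 4.81% lower), and with no filter on low counts 3, Mybpc2, Actn3 and Trim63, all higher (background 3.47% higher, 4.83% lower). In DESeq2, 0 were called and 5 had an unadjusted p under 0.05, all higher (background 5.14% higher, 6.01% lower): Mybpc2, Actn3, Pvalb, Myh4 and Trim63.

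The size of many single values turned on which mice entered the fit, in either direction. Without mouse 43 the fitted log2 fold change was larger for all 43 genes, from 0.07 for Myog to 3.43 for Mybpc2, and moved by more than 1.5 times for 32 of them. Without mouse 13 it was smaller for all 43, with 39 above 0, and moved by more than 1.5 times for 33. It was smaller for 42 without mouse 21 (25 moved by more than 1.5 times) and for all 43 without mouse 14 (14 moved so), and larger for 40 without mouse 29 (16 moved so). Leaving out mouse 50, 64 or 75 moved 3, 3 and 1 genes that far.

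In the thin filament, Acta1 went from 0.75 to 0.39 without mouse 13 and to 1.20 without mouse 43, and Neb from 0.36 to 0.10 and 0.70. In the thick filament, Myh1 went to 0.34 without mouse 13 and 1.07 without mouse 43, Myh2 to 0.04 and 0.58, Myh7 to 0.12 and 0.88, and Myh3 to 0.03 and 0.67 (0.71 without mouse 29). Titin went to -0.0030 without mouse 13 and 0.66 without mouse 43, Casq1 to 0.08 and 0.80, and Mb to 0.15 and 0.72 (0.13 without mouse 21). The wide-spanning genes kept larger values, with Actn3 at 2.16 and 3.37, Pvalb at 1.83 and 3.15, and Myh4 at 1.35 and 2.40.

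**Figure D3:**
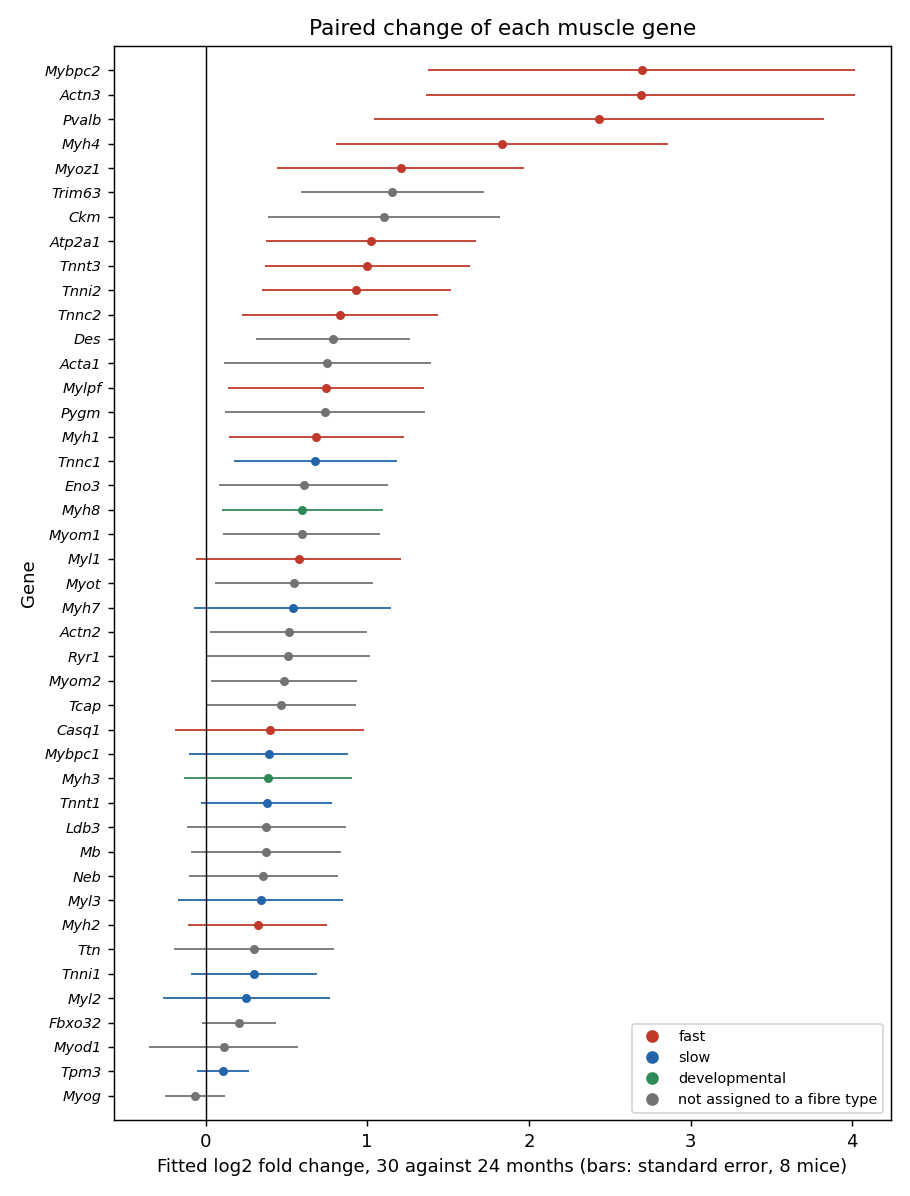
Fitted log2 fold change (30 against 24 months, paired edgeR fit) of each of the 43 genes, with its standard error over 8 mice as bars and the fibre type as colour. Mybpc2, Actn3, Pvalb and Myh4 are farthest to the right with the longest bars, Myog alone lies below 0, and most slow genes lie in the lower part.

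The thin filament group had 9 genes, of which 9 had a fitted change above 0 and 0 passed the test. Acta1, skeletal muscle alpha-actin (chr8:123891769-123894751, GRCm38), ran from 112 to 1592 CPM at 24 months (median 258) and from 172 to 1310 CPM at 30 months (median 514). Mouse 43 was highest at 24 and lowest at 30 months, and the ages overlapped. The log2 fold change was 0.75 (SE 0.64, adjusted p = 0.648, edgeR), with 6 of 8 mice higher. Neb codes for nebulin, the giant protein that runs along the thin filament. Its median was 244 CPM at 24 and 340 CPM at 30 months, with a log2 fold change of 0.36 (SE 0.46) and 4 of 8 mice higher. Tpm3, a slow tropomyosin that many other cells also make, varied least of the 43, from 103 to 229 CPM at 24 months and from 115 to 178 CPM at 30 months. Its span was 2.23-fold, beside a median of 1.90-fold over genes tested, and 62.4% of its 50-base stretches also occur in other genes, among them Tpm3-rs7, so its counts are uncertain.

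Troponin comes as a fast and a slow set, and the fast set differed more between libraries. Tnnt3, the fast troponin T that holds the complex on tropomyosin, ran from 103 to 1589 CPM at 24 months (median 216) and from 135 to 1218 CPM at 30 months (median 532). Its log2 fold change was 1.001 (SE 0.64, adjusted p = 0.544). The fast inhibitory subunit Tnni2 had medians of 141 and 351 CPM and a log2 fold change of 0.93 (SE 0.59, adjusted p = 0.541). Both were higher at 30 months in 6 of 8 mice, with mouse 43 highest at 24 months. Slow troponin T, Tnnt1, had medians of 66.9 and 96.8 CPM with a log2 fold change of 0.38 (SE 0.41). Slow Tnni1 had medians of 22.7 and 32.9 CPM with a log2 fold change of 0.30 (SE 0.39), and slow Tnnc1, the calcium sensor, medians of 12 and 27.3 CPM with 0.68 (SE 0.50). Each slow gene was higher at 30 months in 5 of 8 mice. The fast calcium sensor Tnnc2 was counted at only 0.428 to 7.09 CPM, but 74.0% of its exon bases lie within Ube2c on the annotation, so its level is uncertain. The order of the troponins per kilobase of transcript was Tnnt3 (median over the 16 libraries 284 CPM per kilobase) and Tnni2 (243), above Tnnt1 (77.0), Tnnc1 (31.9) and Tnni1 (27.6). Within ages the last pair changed places, with Tnni1 at 19.8 and Tnnc1 at 16.6 CPM per kilobase at 24 months and Tnnc1 at 37.8 and Tnni1 at 28.6 at 30 months. The ranges of neighbours in this order overlapped.

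The thick filament group had 12 genes, again with 12 above 0 and 0 past the test. Its heavy chain genes other than Myh7 stand in a row on chromosome 11 in the order Myh3, Myh2, Myh1, Myh4 and Myh8, from 67078300 to 67308634 on the plus strand, while Myh7 is on chromosome 14. Myh1 was the most abundant, at 229 to 1943 CPM at 24 months (median 459) and 421 to 2285 CPM at 30 months (median 806), with a log2 fold change of 0.69 (SE 0.54, adjusted p = 0.625) and 5 of 8 mice higher. Myh2 had nearly equal medians of 302 and 301 CPM, a log2 fold change of 0.32 (SE 0.43) and 4 of 8 mice higher. Myh4 had the widest fold span of the 6 heavy chains, 73.7-fold, from 14.5 to 1071 CPM at 24 months (median 33.2) and from 23.4 to 663 CPM at 30 months (median 201). At 24 months mice 43 and 50 were at 1071 and 232 CPM and the other mice at 64.3 CPM or less, and at 30 months mice 43, 64 and 75 were at 39.3 CPM or less. The log2 fold change was 1.83 (SE 1.03, adjusted p = 0.499), with 6 of 8 mice higher.

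Slow Myh7 ran from 6.33 to 118 CPM at 24 months (median 19.6) and from 17.6 to 141 CPM at 30 months (median 36.2), a log2 fold change of 0.54 (SE 0.61, adjusted p = 0.730). Embryonic Myh3 had medians of 115 and 171 CPM (log2 fold change 0.39, SE 0.52) and perinatal Myh8 medians of 37.2 and 62.7 CPM (0.60, SE 0.50). In 5 of 8 mice each of these 3 had its higher level at 30 months. Each was highest in mouse 43 at 24 months and in mouse 13 at 30 months. Heavy chain genes share sequence: 18.9% of the 50-base stretches of Myh4, 26.7% of Myh1, 26.9% of Myh2, 21.4% of Myh8 and 22.2% of Myh7 (mostly with cardiac Myh6) also occur in other genes, which at a read length of 50 bases makes their counts partly uncertain.

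Set against each other per kilobase of transcript, the 6 heavy chains showed which fibre genes a biopsy held. Myh1 made up 44.6% to 55.3% of the sum at 24 months and 46.2% to 54.5% at 30 months. Myh4 made up 2.67% to 26.8% at 24 months (median 3.76%) and 2.95% to 28.8% at the second age (median 10.5%), with a larger share at 30 months in 6 of 8 mice. Myh2 went the other way, with 11.2% to 33.7% (median 26.9%) and 11.5% to 27.4% (median 20.02%), with a larger share at the second age in 1 of 8 mice, mouse 43. The ratio of Myh4 to Myh2 spanned 0.0794 to 2.50, with mouse 50 at 30 months and mouse 43 at 24 months highest. Myh7 stayed between 1.03% and 4.66%, Myh3 between 4.82% and 14.9%, and Myh8 between 3.31% and 4.10%. The lowest Myh3 share was that of mouse 29 at 30 months. These shares are a description of the libraries, and age groups overlapped for all 6.

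**Figure D4:**
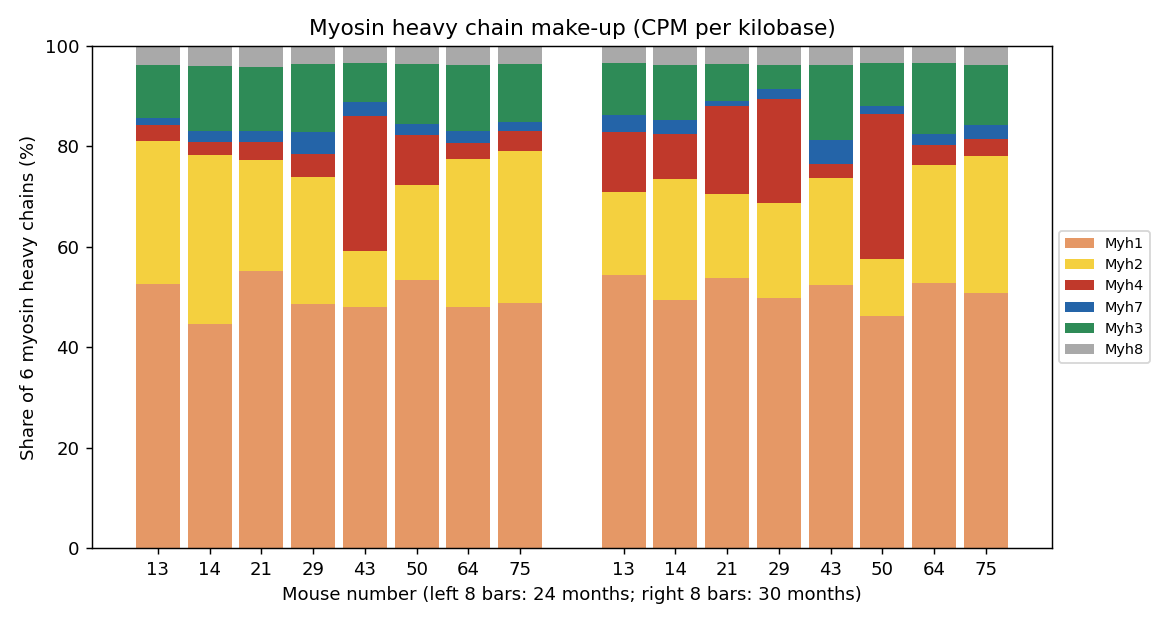
Share of each of 6 myosin heavy chains in their sum (CPM per kilobase of transcript, percent), by mouse number, with 24 months left and 30 months right. Myh1 takes 44.6% to 55.3% in every bar, and the Myh4 band is wide in mouse 43 at 24 months and in mice 50, 29 and 21 at 30 months.

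Of the light chains, Mylpf, the fast regulatory chain, had the highest level per kilobase of the thick filament genes (median 309 CPM per kilobase). It ran from 99.1 to 1449 CPM at 24 months (median 186) and from 136 to 783 CPM at 30 months (median 447), with a log2 fold change of 0.74 (SE 0.61, adjusted p = 0.633) and 6 of 8 mice higher. The fast essential chain Myl1 had medians of 58.4 and 107 CPM (0.58, SE 0.63), with 23.4% of its 50-base stretches shared with Mylf-ps. Slow Myl2 had medians of 30.2 and 36.6 CPM (0.25, SE 0.52) and slow Myl3 medians of 10.4 and 15.7 CPM (0.34, SE 0.51). Mybpc2, the fast form of myosin-binding protein C, which binds along the thick filament, ran from 0.269 to 81.8 CPM at 24 months (median 1.28) and from 0.633 to 39.5 CPM at 30 months (median 13.8). The log2 fold change of 2.70 (SE 1.32, adjusted p = 0.444) was the largest of the 43, with mice 13, 14, 21, 29, 50 and 64 higher and mice 43 and 75 lower. Without mouse 43 it was 3.43 (SE 0.83, adjusted p = 0.140), and over the alternatives that tested this gene the adjusted p ran from 0.0967 to 0.880.

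Titin (Ttn), the spring that spans each sarcomere from Z-disc to M-band, ran from 181 to 1528 CPM at 24 months (median 411) and from 252 to 1091 CPM at 30 months (median 521). Its log2 fold change was 0.30 (SE 0.49, adjusted p = 0.821), with 4 of 8 mice higher. Myom1 and Myom2, the myomesins that link thick filaments at the M-band, had fitted changes of 0.60 and 0.49. In the Z-disc group all 7 genes were above 0 and 0 passed the test. Actn3, the alpha-actinin of fast fibres, ran from 0.643 to 208 CPM at 24 months (median 3.90) and from 1.97 to 116 CPM at 30 months (median 34.8), a 324-fold span over the libraries that was the widest of the 43. The log2 fold change was 2.69 (SE 1.33, adjusted p = 0.444), with the same 6 mice higher as for Mybpc2. Actn2, the alpha-actinin that all fibres share, spanned 7.71-fold, with a log2 fold change of 0.51 (SE 0.49). Des codes for desmin, the filament that links Z-discs and is also made in smooth muscle. It ran from 78.9 to 565 CPM at 24 months (median 133) and from 125 to 573 CPM at 30 months (median 267), with a log2 fold change of 0.79 (SE 0.48, adjusted p = 0.530) and 7 of 8 mice higher, all but mouse 43. The fitted changes of Myoz1, Myot, Tcap and Ldb3 lay between 0.38 (Ldb3) and 1.21 (Myoz1).

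Calcium handling genes were all 4 above 0, with 0 past the test. Pvalb, the calcium buffer parvalbumin that speeds the relaxation of fast fibres and is also made by some neurons, ran from 1.72 to 543 CPM at 24 months (median 13.3) and from 5.81 to 310 CPM at 30 months (median 62.1). Mouse 43 was highest at 24 and lowest at 30 months. The log2 fold change was 2.43 (SE 1.39, adjusted p = 0.508), with 6 of 8 mice higher. Atp2a1, the calcium pump SERCA1 of fast fibres, ran from 137 to 1978 CPM at 24 months (median 267) and from 199 to 1668 CPM at 30 months (median 696), with a log2 fold change of 1.02 (SE 0.65, adjusted p = 0.543) and 7 of 8 mice higher. Of its exon bases, 21.9% overlap Rabep2. Ryr1, the calcium release channel, had medians of 90.6 and 146 CPM (0.51, SE 0.50). Casq1, the calcium store calsequestrin, had medians of 40.8 and 67.8 CPM (0.40, SE 0.59) and its lowest library was mouse 29 at 30 months, at 13.9 CPM.

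Among the energy genes, again 4 of 4 were above 0 and 0 passed the test. Ckm, muscle creatine kinase, ran from 21.4 to 490 CPM at 24 months (median 48.9) and from 37.7 to 328 CPM at 30 months (median 122), with a log2 fold change of 1.10 (SE 0.72, adjusted p = 0.551) and 6 of 8 mice higher. Mb, the oxygen store myoglobin, had the highest level per kilobase of all 43 by the median over the 16 libraries (316 CPM per kilobase), though 31.9% of its exon bases overlap Apol6 and Gm49540. At 30 months its median was 426 CPM per kilobase, below Mylpf (584), Tnnt3 (493) and Tnni2 (458). Its medians were 303 CPM at 24 and 470 CPM at 30 months (0.37, SE 0.46). Eno3, muscle enolase, and Pygm, muscle glycogen phosphorylase, had fitted changes of 0.61 and 0.74.

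The 4 genes with the widest spans among those of fast fibres, Actn3 (324-fold), Pvalb (316-fold), Mybpc2 (304-fold) and Myh4 (73.7-fold), were singled out after their values were seen. Each was lowest in a 24-month library of mouse 13, 14 or 64, and highest in mouse 43 at 24 months, where Actn3 reached 208 CPM and Pvalb 543 CPM. The lowest libraries held 18 reads of Actn3, 49 of Pvalb, 8 of Mybpc2 and 443 of Myh4. Spans and folds that start from so few reads of Actn3, Pvalb and Mybpc2 are imprecise. In mouse 29 these 4 genes did not follow the other muscle genes: Mybpc2 was 7.58-fold, Actn3 5.57-fold, Myh4 3.45-fold and Pvalb 1.06-fold of its 24-month level at 30 months, while 35 of the 43 genes were lower. In mouse 50 these 4 were 2.86-fold to 4.58-fold of their 24-month level while the median of all 43 moved by 0.04. When the mouse term was dropped from the fit, their log2 fold changes shrank to 0.42 for Mybpc2, 0.45 for Actn3, 0.23 for Pvalb and 0.55 for Myh4 (adjusted p from 0.813 to 0.937).

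By fibre type, 14 genes listed as fast had a median fitted log2 fold change of 0.97, 8 listed as slow 0.36 and the 2 developmental heavy chains 0.49, with 0 of each past the test. With 1 mouse left out in turn, the fast median ran from 0.67 to 1.40 and the slow median from 0.08 to 0.69, and without the mouse term in the fit they were 0.43 and 0.21. The difference between fast and slow genes was not tested. The median span between lowest and highest library was 16.3-fold for the fast genes, from 5.79-fold for Myh2 to 324-fold for Actn3. For the slow genes it was 7.93-fold, from 2.23-fold for Tpm3 to 22.3-fold for Myh7. Within mice, the median log2 change of the fast genes was above that of the slow genes in 6 of 8: 3.11 against 2.44 in mouse 13, 1.89 against 1.17 in mouse 14, 2.88 against 1.40 in mouse 21, -0.20 against -1.33 in mouse 29, 0.54 against -0.27 in mouse 50 and 1.60 against 0.92 in mouse 64. It was below in mouse 43 (-3.48 against -1.91) and in mouse 75 (0.07 against 0.41). In mouse 43, where muscle RNA was lower at the second age, the fast genes were thus lower by more than the slow ones.

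Myod1 and Myog, the factors that switch on muscle genes in precursor cells, were at low levels. Myod1 ran from 0.749 to 6.12 CPM at 24 months (median 1.12) and from 0.310 to 3.74 CPM at 30 months (median 1.48), with a log2 fold change of 0.11 (SE 0.46, adjusted p = 0.935). Myog ran from 0.677 to 1.60 CPM (median 0.879) and from 0.512 to 1.71 CPM (median 0.835). Its log2 fold change of -0.07 (SE 0.19, adjusted p = 0.903) was the only one below 0. The level of Myog followed the other muscle genes least, with a rank correlation of 0.45 with their mean over the 16 libraries, against 0.9 or more for 30 of the 43.

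Trim63 (MuRF1) and Fbxo32 (atrogin-1) are the ubiquitin ligases that muscle makes when it wastes. Trim63 ran from 1.85 to 18.3 CPM at 24 months (median 3.18) and from 3.16 to 35.2 CPM at 30 months (median 7.63). Its log2 fold change was 1.16 (SE 0.57, adjusted p = 0.444), with 7 of 8 mice higher, all but mouse 43. Without mouse 43 it was 1.59 (SE 0.38, adjusted p = 0.139), without mouse 29 it was 0.84 (adjusted p = 0.641), and over all alternatives the adjusted p ran from 0.139 to 0.691. Fbxo32, which other tissues also make, ran from 41.5 to 109 CPM at 24 months (median 55.9) and from 41.4 to 144 CPM at 30 months (median 69.5), with a log2 fold change of 0.20 (SE 0.23, adjusted p = 0.729) and 5 of 8 mice higher.

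Both ligases were highest in mouse 29 at 30 months, where most filament genes were lower than at 24 months. Trim63 was at 35.2 CPM there (next at 30 months, 12.1 CPM) and Fbxo32 at 144 CPM (next, 93.4 CPM), while Ttn was at 252 CPM, its lowest at that age. The ratio of Trim63 to Ttn in CPM was 0.139 in this library and 0.0163 or less in the other 15. In the same library 13 of 15 other genes linked to muscle atrophy were at their highest of all libraries, and their summed level was 2434 CPM, against 1271 CPM or less elsewhere. No share over all genes is given beside this count. Of other lists, 4 of 8 sebaceous gland markers and 1 of 33 other sarcomere and Z-disc genes also had their highest level there. Sesn1, a stress-responsive growth inhibitor, was at 291 CPM (next, 92.0 CPM), Gabarapl1, of the autophagy machinery, at 251 CPM (next, 88.5 CPM), and Klf15, a glucocorticoid-responsive factor, at 62.0 CPM (next, 19.3 CPM). Most of these genes are made outside muscle too. Fat cell markers as a sum moved with them, at 1279 CPM for 9 genes in this library, 6 of them at their highest, against 505 CPM or less elsewhere. Among these markers Lep went the other way, from 5.99 CPM in this mouse at 24 months to 1.65 CPM, its lowest level in any library. Endothelial markers summed to 304 CPM in this library, against 127 CPM in the same mouse at 24 months, and red blood cell markers to 260 against 123 CPM. Neither sum was highest in this library: mouse 50 at 30 months had 316 CPM of endothelial markers, and mouse 64 at 30 months 316 CPM of red blood cell markers. The part of these markers in the result was not tested.

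**Figure D5:**
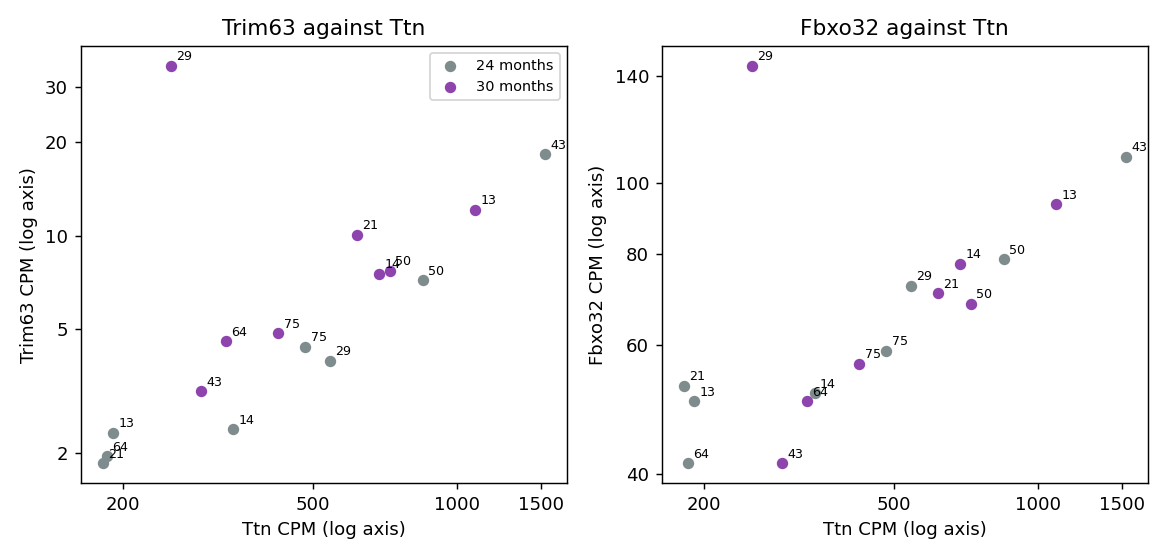
Trim63 CPM (left) and Fbxo32 CPM (right) against Ttn CPM for the 16 libraries, with log axes and mouse numbers beside the points (grey, 24 months; purple, 30 months). Mouse 29 at 30 months is the highest point in both plots, at 35.2 CPM of Trim63 (next, 18.3 CPM) and 144 CPM of Fbxo32 (next, 109 CPM), at a low Ttn level of 252 CPM.

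Muscle genes outside the 43 were read from lists chosen with earlier results known, and 0 genes of any list passed the adjusted threshold (background 0.0%). Of 33 other sarcomere and Z-disc genes, 31 had a fitted change above 0 (median 0.44). The lowest p were those of Mylk2, the skeletal myosin light chain kinase (1.04, SE 0.56, adjusted p = 0.483), and Ankrd2, a stretch-responsive protein (1.12, SE 0.63, adjusted p = 0.503). All 20 genes of excitation and calcium handling were above 0 (median 0.45), led by Kcnj11, a potassium channel subunit (0.74, SE 0.44, adjusted p = 0.520), and Sln, the SERCA inhibitor sarcolipin (0.90, SE 0.55, adjusted p = 0.536). Of 19 genes listed under energy supply, 18 were above 0 (median 0.34). That list also holds Actn4 (-0.09), Tmod4, Art1 and Art3, which are not energy genes. Its smallest p were those of Phka1 (0.25, SE 0.12, adjusted p = 0.424) and Art3 (0.55, SE 0.30, adjusted p = 0.490). The dystrophin complex had 8 of 13 above 0 (median 0.12, and 0.25 without mouse 43), with the smallest p for Sgcb (0.16, SE 0.07, adjusted p = 0.421). Without mouse 43 the medians of the first 3 of these lists were 0.77, 0.84 and 0.71, and 17 of 33, 9 of 20 and 10 of 19 genes had an unadjusted p under 0.05, all higher, as had 7 of 13 of the dystrophin complex (background 8.99% higher). Without mouse 13 the 3 medians were 0.19, 0.19 and 0.14, with 0 genes of these 4 lists at that p (background 5.79% higher).

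Genes of the nerve contact and of denervation shared a list, and those of muscle precursor cells had a separate one. The list for the neuromuscular junction and denervation held Runx1, Ncam1, Gadd45a and Hdac4 beside the junction genes. Of its 14 tested genes, 10 were above 0 (median 0.06, beside 51.7% above 0 over all genes tested). Among them 1 had an unadjusted p under 0.05, a lower one (background 7.18% lower). With 1 mouse left out the median ran from -0.07 (without mouse 13) to 0.27 (without mouse 29), and without mouse 43 there were 3 higher genes at that p and 1 lower (background 8.99% higher, 8.60% lower). The gene was Ache, the acetylcholinesterase that ends transmission and that other cells also make, which was lower in 8 of 8 mice (-0.64, SE 0.16, adjusted p = 0.236). Dok7, which organises the junction, had 0.59 (SE 0.31, adjusted p = 0.475). Of 13 tested genes of satellite cells and myogenesis, 10 were above 0 (median 0.14), with Pax3 at -0.32 (SE 0.20, adjusted p = 0.541) and Cdh15 at 0.71 (SE 0.51, adjusted p = 0.589). Without mouse 43, 12 of the 13 were above 0 (median 0.56), with 5 higher at an unadjusted p under 0.05 and 1 lower (background 8.99% higher, 8.60% lower). Without mouse 13 the median was 0.0033, with 8 above 0. Among the 15 other atrophy genes, 14 were above 0 (median 0.27, beside 51.7% above 0 over all genes tested) and 3 had an unadjusted p under 0.05, all higher (background 4.86% higher), led by Eif4ebp1 (0.35, SE 0.12, adjusted p = 0.312) and Mt2 (0.29, SE 0.10, adjusted p = 0.316). Without mouse 29, 10 of the 15 were above 0 with a median of 0.13, and 3 had an unadjusted p under 0.05, all higher (background 3.57% higher). Without mouse 43, 14 were above 0 with a median of 0.33, and 8 had such a p, all higher (background 8.99% higher).

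The 10 genes outside the 43 whose rank over the 16 libraries was most like that of the members' mean log2 CPM were Jsrp1, Tpm2, Tmem38a, Asb14, Nipsnap2, Itgb1bp2, Jph1, Adssl1, Apobec2 and Asb16. Their Spearman correlations ran from 0.976 to 0.991, with libraries sharing mice, and 72 of 21483 genes reached 0.95. Jph1 and Tmem38a code for proteins of the sarcoplasmic reticulum junction, and Tpm2 for a tropomyosin.

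Markers of other tissues were read in the same libraries. The label skin was met by basal keratinocyte markers (7 genes, 11703 to 15103 CPM summed at 24 months and 8769 to 17374 CPM at 30 months), and of 8 markers of differentiated keratinocytes only Flg was under 1 CPM throughout. Basal markers moved the same way as the median muscle gene in 3 of 8 mice and differentiated ones in 2 of 8. Of 7 basal markers tested, 1 was above 0 (median -0.16) and 1 was lower at an unadjusted p under 0.05. Of 7 differentiated markers tested, 3 were above 0 (median -0.16), with 1 higher and 2 lower at that p (background 4.86% higher, 7.18% lower). With 1 mouse left out the medians ran from -0.28 to -0.07 and from -0.20 to -0.08. Of 9 heart muscle genes, Myl7, Nppa, Nppb and Ryr2 were under 1 CPM in every library, and the summed level ran from 67.6 to 110 CPM at 24 months and from 77.8 to 133 CPM at 30 months, higher in 6 of 8 mice. The 6 heart genes tested were all above 0 (median 0.40), with Tnni3, the cardiac troponin I, at 0.54 (SE 0.11, adjusted p = 0.166) and higher in 8 of 8 mice, and 2 of the 6 had an unadjusted p under 0.05 (background 4.86% higher). Summed endothelial markers (7 genes) ran from 113 to 155 CPM at 24 months and from 120 to 316 CPM at 30 months, and moved the same way as the median muscle gene in 6 of 8 mice. All 7 were above 0 (median 0.51), and 4 were higher at an unadjusted p under 0.05 (background 4.86%; 3 to 6 with 1 mouse left out). Fat cell markers (9 genes) ran from 231 to 505 CPM and from 180 to 1279 CPM, in the same direction in 7 of 8 mice. Of the 9, 8 were above 0 (median 0.34) and 0 had an unadjusted p under 0.05, while 6 had one without mouse 43, all higher (background 8.99% higher). The median of these markers was 0.17 without mouse 29 and 0.60 without mouse 43. Red blood cell markers (5 genes) ran from 70.2 to 253 CPM and from 52.4 to 316 CPM, in the same direction in 5 of 8, with 5 of 5 above 0 (median 0.20), but 1 of 5 without mouse 64. Cartilage markers (12 genes) ran from 276 to 495 CPM and from 213 to 362 CPM, in the same direction in 3 of 8 and lower at 30 months in 7 of 8. Of the 12, 0 were above 0 (median -0.43), and 7 were lower at an unadjusted p under 0.05 (background 7.18%; 3 to 9 with 1 mouse left out). None of the lists of other tissues had a gene past the adjusted threshold. Smooth muscle markers (8 genes) ran from 89.7 to 129 CPM and from 84.6 to 189 CPM, in the same direction in 4 of 8. Of the 8, 7 were above 0 (median 0.44), with 1 higher and 1 lower at an unadjusted p under 0.05 (background 4.86% higher, 7.18% lower). Without mouse 64 there were 4 higher and 1 lower (background 4.76% higher, 6.94% lower).

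Hair follicle markers (10 genes) ran from 39.6 to 363 CPM at 24 months and from 44.1 to 108 CPM at 30 months, in the same direction as the median muscle gene in 2 of 8 mice. Of the 10, 1 was above 0 (median -0.50) and 2 were lower at an unadjusted p under 0.05 (background 7.18% lower). Without mouse 43 there were 7 lower (median -0.92, background 8.60% lower). Fibroblast markers (7 genes) moved in the same direction in 4 of 8 mice, with 1 above 0 (median -0.47) and 0 at that p, and 5 lower without mouse 50 (background 4.57% higher, 7.12% lower). Nerve and Schwann cell markers had 7 of 8 above 0 (median 0.05, same direction in 5 of 8 mice), macrophage markers 7 of 8 (median 0.24, 4 of 8 mice) and sebaceous gland markers 5 of 8 (median 0.07, 4 of 8 mice). Without mouse 13, nerve markers had 4 of 8 above 0 and macrophage markers 8 of 8 (median 0.43). In that fit 3 macrophage markers were higher at an unadjusted p under 0.05 (background 5.79% higher), against 0 with all mice. The macrophage median was 0.07 without mouse 50, and the sebaceous median was -0.10 without mouse 43, with 3 of 8 above 0. None of the genes of these lists was at 0 in all libraries, and their part in the muscle values was not tested.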

How the data were processed

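RNA of 16 ear clips from 8 mice was sequenced single-end after a TruSeq RNA kit, which does not mark strand. Per the labels and the methods, the authors aligned reads to mm10 with TopHat (TopHat2 2.1.0 in the submitters' processing notes, which also name HTSeq 0.6.1p1) and deposited raw counts per gene without normalization. Genes that overlap or share sequence are therefore uncertain. The 5 lines that name no gene (18.7% to 21.1% of reads) were left out. Symbols and positions came from GENCODE M21 (45143 of 45706 identifiers), upstream sequences from RefSeq. At 22967222 to 36162431 counts per library, the spread between mice limits the precision.

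The 43 genes, the lists and the tests were chosen with earlier results of these data known. Named genes were the main genes of each role, the 3 with the smallest p, the 2 smallest-p genes of each related muscle list and the 10 closest in rank, except 1 that is not reported here. The test was the paired one of edgeR 4.0.16 under R 4.3.3 (TMM, filterByExpr, quasi-likelihood, two-sided, mouse as block, Benjamini-Hochberg over 21526 genes, threshold 0.05). On simulated counts of 21257 genes it called 99 of 100 genes changed 2-fold, 100 of 100 changed 4-fold and 11 unchanged ones. Those rates do not carry over to the 43 genes, whose standard errors (0.159 to 1.39, median 0.509) were larger than the median of 0.121 over all genes tested, so that a 2-fold difference could be missed in them. Pairing comes from the animals, and deviations from age means correlated at a median of -0.023 within mice and -0.005 between mice. Alternatives were other size factors, no filter or a minimum of 10 counts, DESeq2 1.42.0, no block, and each mouse left out. Likeness used log2 CPM with 0.1 added. Shared sequence is the share of a transcript's 50-base stretches found in other genes.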

Additional observations from a re-analysis of the deposited data

Results flagged for a closer look

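Gaps within the 8 values of a group were examined in 131 groups, where chance would set about 6.55 apart by Dixon's criterion, and 2 stood apart, both from mouse 43. The log2 change of Tnnt3 in mouse 43 was -3.552, far below the next lowest mouse at -0.026 and the median of 1.02. The level of Tpm3 in mouse 43 at 24 months was 7.8393 on the log2 CPM scale, above the next highest at 7.15 and the median of 6.86.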

How the results depend on the processing

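No gene of the 43 was called at an adjusted p of 0.05 under any alternative run. Genes at an unadjusted p under 0.05 numbered 0 with all mice, 3 with no filter on low counts (Mybpc2, Actn3 and Trim63), 5 in DESeq2 and 0 to 27 when a mouse was left out, 27 without mouse 43 and 2 without mouse 75. The median log2 fold change of the 43 ran from 0.28 (without mouse 13) to 0.92 (without mouse 43) and was 0.29 without mouse 21. Without a replicate block it was 0.30, that of the fast genes 0.43 and that of the slow genes 0.21. Leaving out 1 mouse took the fast median from 0.67 to 1.40 and the slow median from 0.08 to 0.69. Over the whole table, DESeq2 called 228 genes and the fit without a replicate block 3, with 1708 higher genes at an unadjusted p under 0.05; leaving out 1 mouse gave 764 to 1927 higher and 998 to 1845 lower. The sign turned for 7 of 643 single values. Without a block these were Myl3 (-0.0253) and Myod1 (-0.0200). With 1 mouse left out, Myl2 ran from -0.0462 (without mouse 13) to 0.6289, Ttn from -0.0030 (without mouse 13) to 0.6572, Myod1 from -0.1118 (without mouse 14; -0.1075 without mouse 13) to 0.5038 and Myog from -0.1697 to 0.0698 (without mouse 43). The other 636 kept their direction. The cause was not tested. The RLE factors, the factors without the 43 genes, no factors and the minimum of 10 counts kept each median within 0.04 of its value. That minimum left 41 of the 43 genes to test, without Mybpc2 (lowest count 8 reads) and Myod1 (9 reads).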
